A study of Homo sapiens with 16 samples.

Results

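The genes described are the 3 human fringe enzymes LFNG, MFNG and RFNG, the Notch ligands JAG1 and JAG2, the receptors NOTCH1, NOTCH2 and NOTCH3, and the target genes HES1 and HEY1. They were taken by symbol from read count files of 23228 gene rows, and all 10 symbols of the list had a row. The list was chosen by earlier measured values of these libraries, in which LFNG counts were among the largest falls after MMS at 8 h. That comparison is therefore given for the 10 genes as values without a test, and p-values of the other comparisons are not independent evidence of a direction.

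MDA-MB-231 is an established line of human breast cancer cells without the oestrogen receptor. Cells received sorafenib and then methyl methanesulfonate (the combination), methyl methanesulfonate alone (MMS, an agent that methylates DNA), sorafenib alone (an inhibitor of several kinases, at 1 µM), or the solvent DMSO. For MMS the sources disagree on the dose: the series design text gives 40 µg/mL, and the labels of the samples give 40 µM. RNA was taken at 8 h and 24 h, giving 8 groups of 2 libraries from independent experiments of 1 line. Combination cells had sorafenib for 12 h before MMS and were timed from the MMS addition, so their total exposure to sorafenib was 12 h longer than with the inhibitor alone.

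Notch is a receptor that is read at contacts between neighbouring cells. A Jagged or Delta ligand on one cell binds the receptor on the next, the protease ADAM10 and then gamma-secretase cut it, and the freed intracellular part joins RBPJ and a Mastermind protein (MAML) on DNA to switch on repressor genes such as HES1 and HEY1. Fringe enzymes add N-acetylglucosamine to O-linked fucose on the receptor's extracellular repeats, which changes how strongly it answers Delta against Jagged ligands. In breast epithelium the pathway is known for its part in luminal cell fate, and JAG1 and NOTCH1 have been studied in tumours without hormone receptors.

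Library depth, as the sum of the gene rows, ran from 16774156 to 26448212 counts (median 20348720). Mesenchymal markers were high in every library (VIM 1479 to 2476 CPM, counts scaled to a common total of the gene rows, CD44 608 to 1174). Oestrogen receptor ESR1 lay at 0 to 0.224 CPM, while the keratin KRT8 lay at 177 to 350. The 4 endothelial markers summed to 6.56 to 10.4 CPM in the combination and 7.71 to 8.96 in MMS cells at 8 h, against 13.2 to 13.95 in sorafenib cells and 15.3 to 16.8 in DMSO cells, and VWF among them was at 0 to 0.201. At 24 h that sum was 6.44 to 6.47 in the combination, 5.27 to 6.21 in MMS cells, 12.9 to 13.7 in sorafenib cells and 16.6 to 17.7 in DMSO cells, so that it was lower wherever MMS was given. The 5 mesenchymal markers summed to 3772 to 4379 in MMS cells at 8 h, against 4890 to 5450 in DMSO cells, and to 3588 to 3895 at 24 h, against 4594 to 5262. In the combination they summed to 3639 to 4237 at 8 h, against 4603 to 5306 in sorafenib cells, and to 3438 to 3784 at 24 h, against 4540 to 5180. The 8 luminal markers summed to 371 to 381 in MMS cells at 8 h, against 485 to 510 in DMSO cells, and to 418 to 466 at 24 h, against 521 to 610. In the combination they summed to 472 to 540 at 8 h, against 548 to 613 in sorafenib cells, and to 466 to 476 at 24 h, against 599 to 643. All 3 sums were thus lower with MMS, and their part in the results was not tested. The stress gene ATF3 had 84.6 and 83.7 CPM in MMS cells at 8 h, against 6.50 and 8.52 in DMSO cells, and the ERK output gene DUSP6 had 142.0 and 141.3 in sorafenib cells, against 360.4 and 322.0 in DMSO cells.

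Levels differed widely between the 10 genes. Per kilobase of annotated exon and in the 4 DMSO libraries of both times, JAG1 averaged 32.0 ± 2.93 CPM and NOTCH2 27.6 ± 1.33 (SD, n = 4). LFNG followed at 13.2 ± 3.70, RFNG at 12.7 ± 2.12, NOTCH1 at 8.08 ± 1.31 and HES1 at 6.43 ± 2.02. LFNG and RFNG, which are neighbours in this order, lay within each other's spread, while HES1 lay just outside that of NOTCH1. The remaining genes lay below 1 on this scale, with HEY1 at 0.712 ± 0.181, JAG2 at 0.470 ± 0.222, MFNG at 0.221 ± 0.053 and NOTCH3 at 0.066 ± 0.035. MFNG rested on 3 to 18 counts per library, NOTCH3 on 3 to 20, HEY1 on 6 to 47 and JAG2 on 22 to 126. All 10 genes passed the filter on low counts, but MFNG and NOTCH3 passed it only through the groups in which they were higher.

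**Figure D1:**
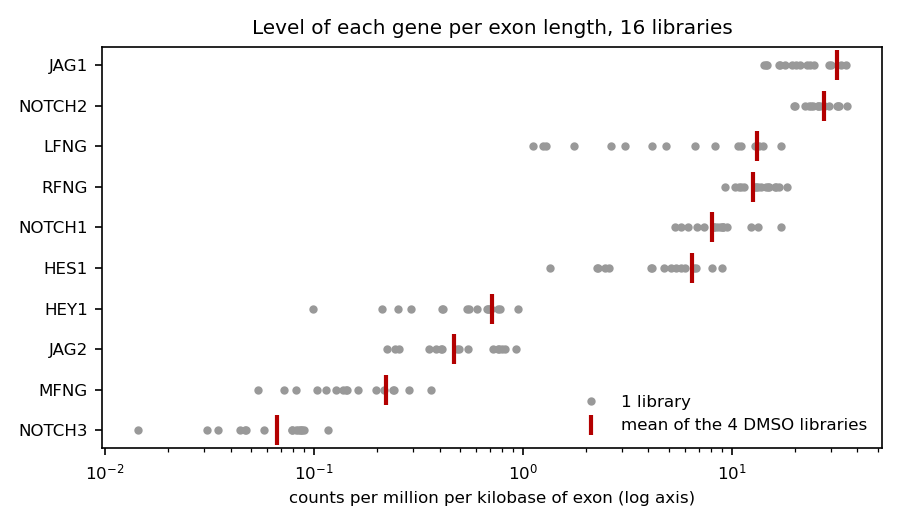
CPM per kilobase of exon (log axis) of the 10 genes, with a grey point for each of the 16 libraries and a red mark at the mean of the 4 DMSO libraries. JAG1 and NOTCH2 lie at the top (DMSO means 32.0 and 27.6), NOTCH3 at the bottom (0.066), and the points of LFNG spread from 1.12 to 17.3.

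Promoters of the 3 genes on which the results turn are shown because RBPJ, the factor that the receptor's intracellular part joins, binds the letters TGGGAA. Each runs from 250 bases before to 50 bases after the start of the gene in RefSeq on GRCh38.p14, 5′ to 3′ on the strand of the gene. Matches to TGGGAA on either strand (TTCCCA on the other) stand in capitals. LFNG lies at chr7:2512279-2512578 (+), HES1 at chr3:194135898-194136197 (+) and JAG1 at chr20:10673950-10674249 (-).
LFNG: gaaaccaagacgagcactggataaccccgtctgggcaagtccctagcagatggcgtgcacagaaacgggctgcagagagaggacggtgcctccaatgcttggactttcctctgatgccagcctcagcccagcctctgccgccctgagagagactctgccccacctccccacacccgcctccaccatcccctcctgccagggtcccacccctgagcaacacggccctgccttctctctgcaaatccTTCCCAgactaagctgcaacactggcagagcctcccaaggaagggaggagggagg
HES1: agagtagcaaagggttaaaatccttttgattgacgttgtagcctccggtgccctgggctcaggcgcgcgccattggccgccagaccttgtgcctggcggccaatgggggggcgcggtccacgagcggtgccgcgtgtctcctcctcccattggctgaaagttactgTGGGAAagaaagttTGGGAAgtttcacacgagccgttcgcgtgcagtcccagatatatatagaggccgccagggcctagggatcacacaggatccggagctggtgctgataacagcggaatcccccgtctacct
JAG1: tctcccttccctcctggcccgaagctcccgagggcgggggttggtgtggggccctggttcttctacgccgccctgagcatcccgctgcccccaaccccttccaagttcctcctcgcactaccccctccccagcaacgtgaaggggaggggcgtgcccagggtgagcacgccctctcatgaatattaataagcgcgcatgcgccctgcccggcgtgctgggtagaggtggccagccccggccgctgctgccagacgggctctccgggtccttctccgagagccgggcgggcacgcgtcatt
HES1 held 2 matches, whose leftmost letters lie 84 and 70 bases before the start, LFNG held 1 match whose leftmost letter lies 5 bases before it, and JAG1 held none in this window. Of 34943 RefSeq promoters of the same length, 24.0% held the letters TGGGAA, so that a match is common. No match to TGANTCA, the AP-1 letters, or TGACGTCA, the CRE letters, was found on either strand in the 8 of 10 genes with a promoter in the table. Those letters occur in 7.72% and 1.84% of all promoters. These searches describe letters and not bound sites.

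Genes were called higher or lower when the adjusted p of edgeR's quasi-likelihood test over 13948 genes was under 0.05. A second fit took the start of the library title, MDA231 or MDAMB231, as a replicate block, since libraries with the same start deviated together in every pair of groups. Log2 changes are treated over untreated with the agent in question, and values per library are given in the order MDA231, MDAMB231. MMS was set against DMSO, which asks what MMS did without the inhibitor. The combination was set against sorafenib, but its cells also had sorafenib for 12 h longer. In that comparison MMS and the longer exposure cannot be told apart. Sorafenib was set against DMSO and the combination against MMS, which asks what the inhibitor did, with 12 h more of it in the combination. These comparisons share libraries (DMSO, sorafenib or MMS), so that their results are not independent of each other.

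After MMS at 24 h, 2 of the 10 genes were called lower and 0 higher, where 16.2% of all genes were lower and 15.1% higher. In the combination against sorafenib at 8 h, 2 were lower and 0 higher, beside 11.5% and 13% of all genes. At 24 h, 3 were lower and 0 higher, beside 18.6% and 18%, but 1 of the 3 is MFNG, which the filter admitted through its higher groups, so that 2 lower are left to read. Such shares of the 10 genes are near those of all genes, so the counts are no result about the group, and the single genes are given below. For sorafenib against DMSO, 0 of 10 were called at 8 h, where 0.287% of all genes were lower and 0.129% higher. DESeq2 called JAG1 there, and 2 genes had an unadjusted p under 0.05. At 24 h JAG1 was lower and 0 were higher, beside 0.545% and 0.251%. In the combination against MMS, 0 of 10 were called by edgeR or DESeq2 at 8 h (0.394% of all genes lower, 0.244% higher) and at 24 h (0.0932% and 0.0143%), with 2 genes and 1 gene at an unadjusted p under 0.05.

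With the block the calls covered more of the genome and more of the 10 genes. At 24 h MMS gave 3 of 10 calls, where 48.2% of all genes were called in either direction. For the combination against sorafenib there were 5 calls at 8 h beside 39.8%, and 7 at 24 h, MFNG again among them, beside 54.3%. For sorafenib against DMSO there were 3 calls at 8 h beside 4.98% and 3 at 24 h beside 7.1%. For the combination against MMS there were 4 calls at 8 h beside 9.46% and 2 at 24 h beside 2.01%. JAG1 and HES1 were called lower with the block in each of these 4 comparisons of the inhibitor.

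**Figure D2:**
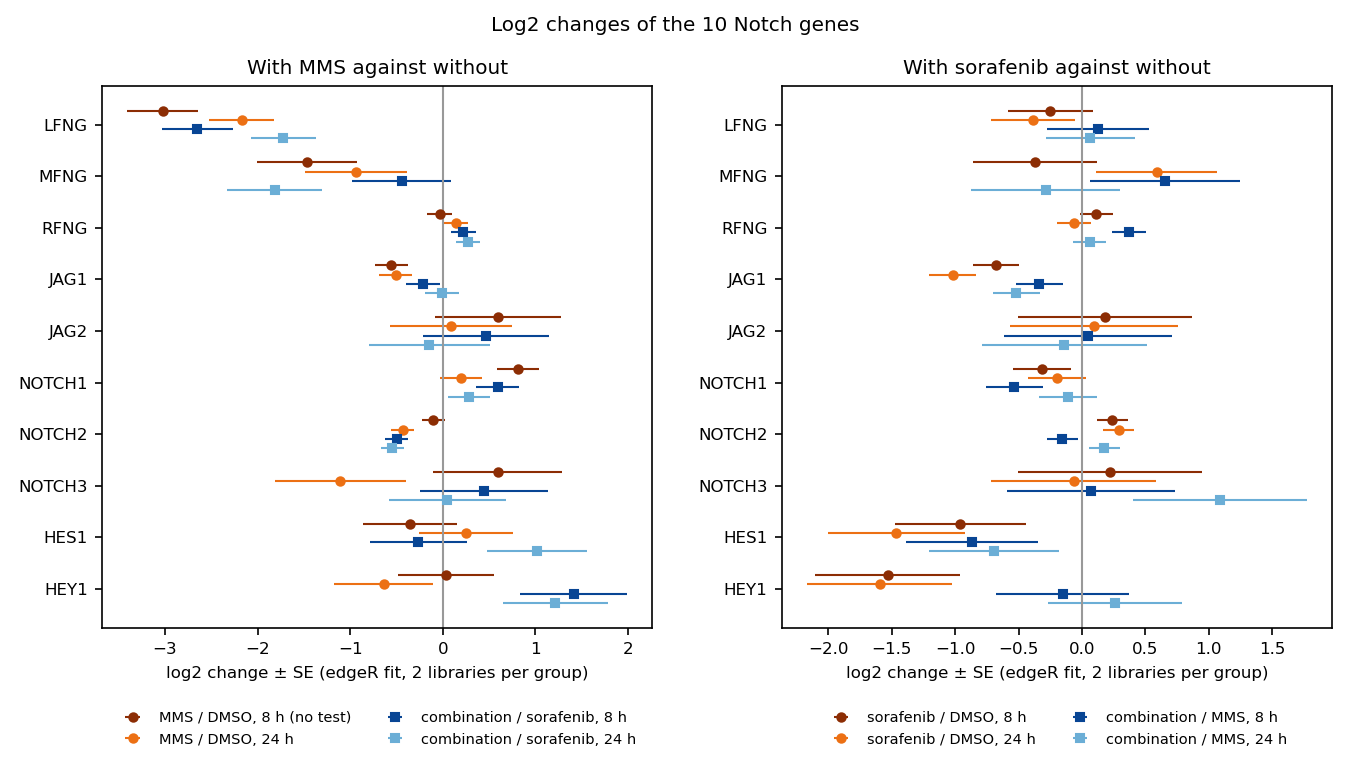
Log2 changes ± SE of the 10 genes from the edgeR fit (horizontal axis), 2 libraries per group, for MMS (left panel) and for sorafenib (right panel), each without and with the other agent. LFNG lies between -3.03 and -1.72 in the MMS panel and between -0.39 and 0.13 in the sorafenib panel, where JAG1 lies between -1.02 and -0.34.

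LFNG, the fringe enzyme known as lunatic fringe, stood lower wherever MMS was given. At 8 h it had 4.16 and 3.996 CPM in MMS cells, against 41.6 and 26.7 in DMSO cells. The groups did not overlap, and the fitted log2 change was -3.03 ± 0.38 (SE), given without a test. The 24 h levels of LFNG were 13.3 and 9.88 CPM in MMS cells, against 55.3 and 45.2 in DMSO cells. LFNG thus fell 4.34-fold at 24 h (log2 change -2.17 ± 0.36, adjusted p = 0.00103), with every MMS library below every DMSO library. The ratio of MMS to DMSO at 24 h was 0.24 within the MDA231 libraries and 0.22 within the MDAMB231 libraries. The MMS change at 24 h minus that at 8 h was 0.85 ± 0.50 on the log2 scale, which holds the untested comparison and is a value only.

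LFNG was also lower when MMS followed sorafenib. At 8 h it had 5.66 and 3.60 CPM in the combination, against 35.4 and 21.4 in sorafenib cells. The fall was 6.13-fold (log2 change -2.65 ± 0.38, adjusted p = 0.000472). At 24 h it had 15.6 and 8.48 in the combination, against 43.1 and 34.2 in sorafenib cells, with a log2 change of -1.72 ± 0.35 (adjusted p = 0.00272). The groups did not overlap at either time. Without any 1 of the 4 libraries LFNG remained lower, with adjusted p from 0.00464 to 0.0152 in MMS against DMSO at 24 h and from 0.000743 to 0.00723 and 0.00357 to 0.0335 in the combination against sorafenib at 8 h and 24 h. Sorafenib itself gave log2 changes of -0.25 ± 0.34 at 8 h and -0.39 ± 0.33 at 24 h, neither called. Its libraries overlapped those of DMSO at 8 h and lay below them at 24 h. There the block gave -0.39 ± 0.13, not called either (adjusted p = 0.0663). The combination differed from MMS by 0.13 ± 0.40 at 8 h and 0.07 ± 0.35 at 24 h, also not called. In a bulk sample less LFNG RNA per cell and fewer LFNG-expressing cells cannot be told apart.

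**Figure D3:**
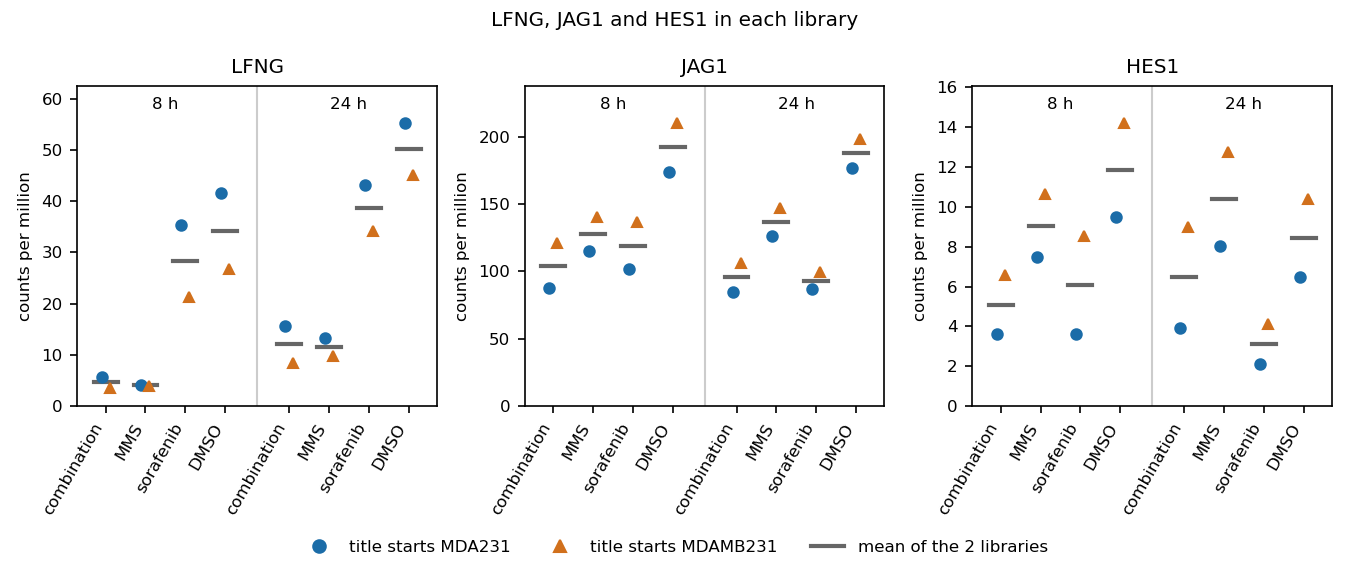
Levels in CPM of LFNG, JAG1 and HES1 in each of the 16 libraries, by treatment and time; circles and triangles are the 2 title starts, bars the mean of 2 libraries. LFNG lies between 3.60 and 15.6 in the 8 libraries with MMS and between 21.4 and 55.3 in the 8 without, while JAG1 is highest in the DMSO libraries (174 to 210).

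The 5 genes whose 8 group means ran most like those of LFNG, among 11512 genes with a mean count of at least 50, were R3HDM2 (Pearson r = 0.999 of log2 CPM + 1), WNT7B (0.996), TRIB2 (0.995), SHROOM2 (0.995) and ARHGAP12 (0.993). These r are over 8 groups that share libraries with every comparison here, and they describe a pattern and nothing more. WNT7B, a secreted Wnt ligand, spanned 3.58 to 30.6 CPM over the group means, and R3HDM2 spanned 18.9 to 32.9.

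RFNG, radical fringe, had 17.9 and 22.1 CPM in MMS cells at 8 h, against 20.8 and 21.2 in DMSO cells, which overlapped. RFNG at 24 h had 31.2 and 32.5 in MMS cells, against 26.5 and 29.02 in DMSO cells, which did not overlap, and the log2 change of 0.15 ± 0.13 was not called (adjusted p = 0.433). In the combination it had 28.6 and 24.9 at 8 h, against 20.01 and 25.0 in sorafenib cells, which overlapped. The combination had 31.1 and 35.4 at 24 h, against 25.6 and 27.9, and this difference was called with the block alone (log2 change 0.27 ± 0.11, adjusted p = 0.0406). RFNG in the combination against MMS at 8 h was 0.37 ± 0.13, not called (adjusted p = 0.232), and 0.38 ± 0.11 with the block (adjusted p = 0.0397). An exon of RFNG lies under GPS1 on the opposite strand, which reached 181 CPM. The strand setting of the counting is not given in the sources used here, so reads of the 2 genes may not be separable. MFNG, manic fringe, had 3 and 5 counts in MMS cells at 8 h, against 10 and 10 in DMSO cells, and 5 and 4 at 24 h, against 9 and 6. In the combination it had 5 and 5 counts at 8 h, against 10 and 6 in sorafenib cells, and 4 and 5 at 24 h, against 18 and 9. MFNG was thus below in CPM in all 4 comparisons with MMS, without overlap. The fit gave -1.82 ± 0.51 for the last of these. Its call is not read as a result, because MFNG passed the filter through its higher groups, and it was not made by DESeq2 or without the MDA231 library of the sorafenib group or either library of the combination.

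JAG1, the ligand with the highest level, was lower with sorafenib. At 24 h it had 86.7 and 99.8 CPM in sorafenib cells, against 177 and 198 in DMSO cells. The fall was 2.01-fold (log2 change -1.02 ± 0.18, adjusted p = 0.0244), and the ratio was 0.49 and 0.50 within the 2 title starts. The call did not hold without any 1 of the 4 libraries, where adjusted p ran from 0.0736 to 0.28 and the log2 change from -1.10 to -0.94, nor with only the 4 libraries compared in the fit (adjusted p = 0.0738). With the block the adjusted p was 9.51e-08. At 8 h JAG1 had 102 and 137 CPM in sorafenib cells, against 174 and 210 in DMSO cells. The groups did not overlap, and the log2 change of -0.68 ± 0.18 was not called by edgeR (adjusted p = 0.216). DESeq2 and the blocked fit called it lower (adjusted p = 0.0226 and 1.92e-05).

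JAG1 also stood lower with MMS in cells without sorafenib. It had 115 and 140 CPM in MMS cells at 8 h, against 174 and 210 in DMSO cells, a log2 change of -0.55 ± 0.18 given without a test. JAG1 at 24 h had 127 and 147 in MMS cells, against 177 and 198 in DMSO cells. The groups did not overlap at either time, and the change at 24 h of -0.51 ± 0.18 missed the threshold (adjusted p = 0.0515). DESeq2 and the blocked fit called it lower (adjusted p = 0.0203 and 3.49e-05). In the combination at 24 h JAG1 had 84.6 and 107, against 86.7 and 99.8 in sorafenib cells, which overlapped. That log2 change was -0.01 ± 0.18, and its sign depended on the scaling and on which library was left out. At 8 h JAG1 had 87.5 and 121 in the combination, against 102 and 137 in sorafenib cells, which overlapped too (-0.21 ± 0.18, adjusted p = 0.458, and 0.0404 with the block). Against MMS alone the combination had a log2 change of -0.34 ± 0.18 at 8 h and -0.52 ± 0.18 at 24 h, called with the block alone (adjusted p = 0.0119 and 0.000712).

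JAG1 was thus highest in the DMSO groups of both times, and every treated library lay below all 4 DMSO libraries. An antisense gene, AL050403.2, lies over part of a JAG1 exon in GENCODE and has no row in the files. The genes most like JAG1 over the 8 group means were HBEGF, a growth factor that binds the EGF receptor (r = 0.963), SLC25A37 (0.953), SLC22A18AS (0.953), BCL2A1, an inhibitor of apoptosis (0.946), and SSFA2 (0.942). JAG2, the second Jagged ligand, had 1.31 to 5.44 CPM. In the fit without the block, its SE of 0.65 to 0.69 on the log2 scale exceeded the size of its log2 change in each of the 8 comparisons between treatments. With the block JAG2 had 0.58 ± 0.24 after MMS at 8 h, given without a test. It had 0.47 ± 0.24 in the combination against sorafenib at 8 h (adjusted p = 0.132), and was not called in any tested comparison.

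NOTCH1 was higher in MMS cells at 8 h. It had 125 and 160 CPM there, against 81.8 and 84.6 in DMSO cells, without overlap, and the log2 change of 0.81 ± 0.23 is given without a test. By 24 h NOTCH1 had 76.5 and 83.4 in MMS cells, against 57.6 and 76.8 in DMSO cells, which overlapped (0.20 ± 0.23, adjusted p = 0.553). In the combination at 8 h it had 88.3 and 115, against 53.4 and 79.5 in sorafenib cells. These groups did not overlap, and the log2 change was 0.59 ± 0.23 (adjusted p = 0.0837). DESeq2 and the block called NOTCH1 higher (adjusted p = 0.0373 and 0.000164), as did the fit without the MDAMB231 library of the sorafenib group (0.90 ± 0.26, adjusted p = 0.0371). The other 3 fits without 1 library did not call it (0.34 to 0.76, adjusted p 0.0713 to 0.443). At 24 h the combination had 63.8 and 84.7, against 49.8 and 68.4 in sorafenib cells, called with the block alone (0.29 ± 0.11, adjusted p = 0.0289). Between the combination and MMS at 8 h the log2 change was -0.53 ± 0.23 (adjusted p = 0.327, and 0.0029 with the block). Sorafenib against DMSO gave -0.31 ± 0.23 at 8 h and -0.20 ± 0.23 at 24 h, neither called.

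NOTCH2, the receptor with the highest level, was lower with MMS in 3 tested comparisons. At 24 h it had 359 and 325 CPM in MMS cells, against 444 and 447 in DMSO cells. The fall was 1.30-fold (log2 change -0.43 ± 0.12, adjusted p = 0.0181). It was kept without the MDA231 library of the MMS group (adjusted p = 0.0385) and lost without its MDAMB231 library (0.15) or the MDA231 or MDAMB231 library of the DMSO group (0.062 and 0.0714). At 8 h it had 321 and 424 in the combination, against 519 and 515 in sorafenib cells, a log2 change of -0.50 ± 0.12 (adjusted p = 0.0107). That call was lost without the MDA231 library of the sorafenib group (0.06) or of the combination (0.0895), and with only the 4 libraries compared in the fit (0.0655). The 24 h levels were 394 and 379 in the combination, against 570 and 525 in sorafenib cells. This fall of 1.42-fold (-0.55 ± 0.12, adjusted p = 0.00434) was kept without any 1 of the 4 libraries (adjusted p 0.011 to 0.0499).

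In MMS cells at 8 h NOTCH2 had 387 and 416 CPM, against 468 and 416 in DMSO cells, which overlapped (-0.10 ± 0.12, no test). Sorafenib gave 0.24 ± 0.12 at 8 h and 0.29 ± 0.12 at 24 h, neither called. Its libraries nonetheless lay above those of DMSO without overlap, at 8 h (519 and 515 against 468 and 416) and at 24 h (570 and 525 against 444 and 447). Beside DMSO itself, NOTCH2 in the combination overlapped at 8 h (321 and 424) and lay below at 24 h (394 and 379). NOTCH2NL, a partial copy of NOTCH2 with a row of its own at 12.6 to 24.5 CPM, may share reads with it. NOTCH3 rested on so few counts that its values, between 0.125 and 1.01 CPM, carried an SE of 0.63 to 0.72 on the log2 scale.

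**Figure D4:**
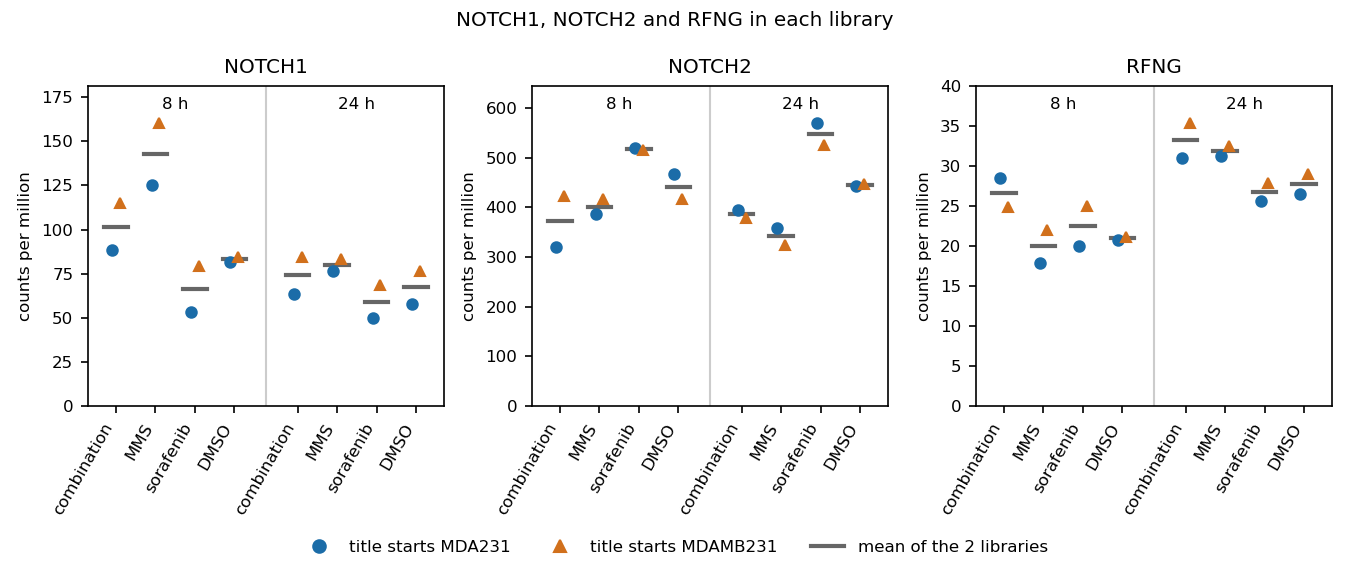
Levels in CPM of NOTCH1, NOTCH2 and RFNG in each of the 16 libraries, by treatment and time; circles and triangles are the 2 title starts, bars the mean of 2 libraries. NOTCH1 is highest in MMS cells at 8 h (125 and 160), and NOTCH2 at 24 h lies between 325 and 394 with MMS and between 444 and 570 without.

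HES1, a repressor gene that the freed receptor switches on, had low levels with sorafenib. At 24 h it had 2.12 and 4.10 CPM in sorafenib cells, against 6.48 and 10.4 in DMSO cells. The groups did not overlap, and the ratio was 0.33 and 0.39 within the 2 title starts. The log2 change of -1.46 ± 0.54 was not called without the block (adjusted p = 0.381) and was called with it (-1.47 ± 0.20, adjusted p = 8.05e-05). At 8 h HES1 had 3.59 and 8.53 in sorafenib cells, against 9.48 and 14.2 in DMSO cells. That difference was -0.96 ± 0.51 (adjusted p = 0.778), and -0.99 ± 0.17 with the block (adjusted p = 0.00128). It ran from -1.70 without the MDAMB231 library of the sorafenib group to -0.47 without the MDA231 one. HES1 varied between the title starts in every group by 1.42 to 2.37 times, always with the MDAMB231 library higher.

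With MMS the levels of HES1 overlapped those of DMSO. It had 7.49 and 10.6 CPM in MMS cells at 8 h, against 9.48 and 14.2 in DMSO cells (-0.35 ± 0.50, no test). HES1 at 24 h had 8.06 and 12.8 in MMS cells, against 6.48 and 10.4 in DMSO cells (0.25 ± 0.51, adjusted p = 0.751). In the combination it had 3.64 and 6.56 at 8 h, against 3.59 and 8.53 in sorafenib cells. The combination at 24 h had 3.90 and 9.004, against 2.12 and 4.10 in sorafenib cells, which overlapped, with a log2 change of 1.02 ± 0.54 (adjusted p = 0.165, and 0.000406 with the block). Without 1 library it ran from 0.33, without the MDAMB231 library of the combination, to 1.56, without that of the sorafenib group. Against MMS alone the combination had -0.87 ± 0.52 at 8 h and -0.69 ± 0.51 at 24 h, both called lower with the block (adjusted p = 0.00422 and 0.0285). Leaving out the MDA231 or the MDAMB231 library of the combination gave -0.51 and -1.37 at 8 h, and -0.21 and -1.41 at 24 h. The ligand JAG1 and HES1 thus had the same sign in these comparisons of the inhibitor. Their group means had r = 0.791 over the 8 groups, which ranked HES1 at 142 among 11512 genes and describes a pattern only. In the comparisons with MMS both were negative at 8 h. In the combination against sorafenib at 8 h, however, both overlapped the sorafenib libraries, and neither was called without the block. Either sign there turned in a fit without 1 library (JAG1 to 0.005, HES1 to 0.48). At 24 h JAG1 stood at -0.51 and HES1 at 0.25 after MMS, and at -0.01 and 1.02 in the combination against sorafenib.

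HEY1, a second target of the pathway, had 0.55 and 0.65 CPM in sorafenib cells at 8 h, against 1.55 and 1.95 in DMSO cells. At 24 h it had 0.25 and 1.07 in sorafenib cells, against 1.40 and 2.44 in DMSO cells. Neither pair of groups overlapped, with log2 changes of -1.53 ± 0.57 (adjusted p = 0.475, and 0.0257 with the block) and -1.59 ± 0.57 (adjusted p = 0.347, and 0.0108 with the block). In the combination HEY1 had 1.43 and 1.83 at 8 h, against 0.55 and 0.65 in sorafenib cells, a log2 change of 1.42 ± 0.58 (adjusted p = 0.0973, and 0.00813 with the block). HEY1 at 24 h had 1.06 and 2.01 in the combination, against 0.25 and 1.07 in sorafenib cells (1.22 ± 0.57, adjusted p = 0.114, and 0.00999 with the block). Without 1 library that 24 h change ran from 0.51 ± 0.55 (adjusted p = 0.544, without the MDA231 library of the sorafenib group) to 2.52 ± 0.66 (adjusted p = 0.0149, without its MDAMB231 library), and it was called in the last of these 4 fits alone. For sorafenib against DMSO at 24 h the change without 1 library ran from -2.87 (without the MDAMB231 sorafenib library) to -0.87 (without the MDA231 one). HEY1 was thus low in the libraries of sorafenib alone, on 6 to 19 counts, and MMS against DMSO at 24 h was not called (-0.64 ± 0.53, adjusted p = 0.396). Against MMS alone the combination showed no such fall of HEY1. Its log2 change there was -0.15 ± 0.52 at 8 h and 0.26 ± 0.53 at 24 h, called neither with the block nor without it.

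The interaction at 24 h set the change in the combination against sorafenib beside that in MMS against DMSO. It also holds the 12 h of extra sorafenib, so a difference in the MMS effect alone cannot be read from it. It gave log2 differences of -0.88 to 1.86 with an adjusted p of 1 for all 10 genes, in a comparison in which 0% of all genes were called higher and 0% lower. With the block 0 of the 10 genes were called (adjusted p 0.198 to 0.975), where 0.043% of all genes were, DESeq2 called 0, and 1 gene had an unadjusted p under 0.05. The interaction at 8 h holds the untested comparison and is a value only, at 0.38 ± 0.53 for LFNG and 0.34 ± 0.26 for JAG1. An adjusted p of 1 does not show that the MMS effects were alike.

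In DMSO cells time alone gave 0 calls of 10 by edgeR and DESeq2, at 24 h against 8 h, with 1 gene at an unadjusted p under 0.05. Of all genes 0.394% were higher and 0.294% lower. With the block 4 of the 10 were called, beside 13.6% of all genes. LFNG had 55.3 and 45.2 CPM at 24 h, against 41.6 and 26.7 at 8 h, and was higher with the block (0.55 ± 0.13, adjusted p = 0.00794). RFNG was higher too (0.38 ± 0.11, adjusted p = 0.032), and NOTCH1 (-0.35 ± 0.11, adjusted p = 0.0356) and HES1 (-0.52 ± 0.17, adjusted p = 0.0482) were lower. JAG1 had 177 and 198 CPM at 24 h, against 174 and 210 at 8 h, which overlapped.

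Other genes of the pathway were read from 6 lists of 64 genes, of which 59 passed the filter on low counts. These lists were drawn up with earlier results of these data known. Their calls and p-values, those of MMS at 8 h included, are therefore not independent evidence of a direction. After MMS at 8 h 8 were called higher and 15 lower, where 14.5% of all genes were higher and 12% lower. At 24 h 5 were higher and 15 lower, where 15.1% of all genes were higher and 16.2% lower. In the combination against sorafenib 6 were higher and 13 lower at 8 h (all genes 13% and 11.5%), and 3 higher and 19 lower at 24 h (all genes 18% and 18.6%). The median log2 change of the 59 genes was 0.03 after MMS at 8 h and -0.01 at 24 h, and -0.08 and -0.09 in the combination against sorafenib, beside medians of all genes between -0.004 and 0.017. For sorafenib against DMSO 1 was lower at 8 h, the Mastermind coactivator MAML3 (-1.21 ± 0.21, adjusted p = 0.0299), and 1 was higher at 24 h, the acetyltransferase KAT2B (0.58 ± 0.11, adjusted p = 0.0354). KAT2B was also the 1 gene called higher in the combination against MMS at 8 h (0.58 ± 0.12, adjusted p = 0.0467), and 0 were called at 24 h.

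**Figure D5:**
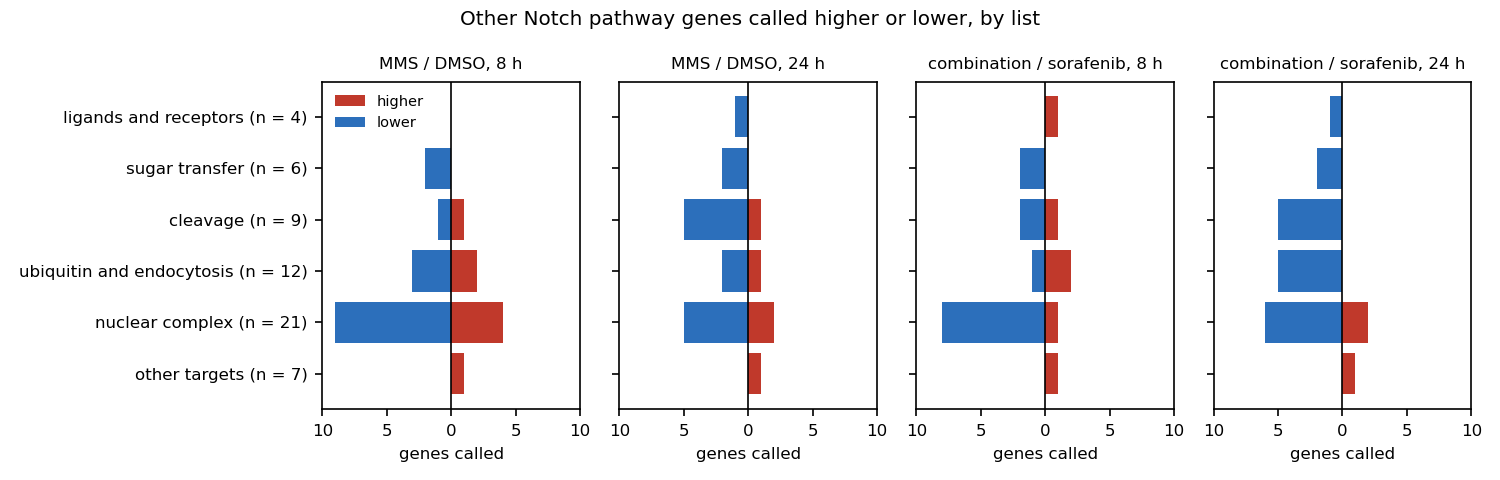
Number of genes called higher (red, to the right) and lower (blue, to the left) in each of 6 lists of other Notch pathway genes, for the 4 comparisons with MMS; n is the number of genes tested. The nuclear complex list is the largest and holds most calls, with 4 of 21 higher and 9 lower after MMS at 8 h. Of all genes 14.5% were higher and 12% lower there.

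Among genes that cut the receptor, ADAM10, the protease of the first cut, was lower with MMS in all 4 comparisons. Its log2 changes were -0.79 ± 0.10 and -0.71 ± 0.10 in MMS against DMSO at 8 h and 24 h, and -1.003 ± 0.10 and -0.81 ± 0.10 in the combination against sorafenib (highest adjusted p = 0.000317). At 24 h 5 of the 9 cleavage genes were lower in each comparison, where 16.2% of all genes were lower after MMS and 18.6% in the combination against sorafenib, among them the gamma-secretase parts APH1B (-0.74 ± 0.16 after MMS and -0.99 ± 0.15 in the combination) and NCSTN (-0.34 ± 0.08 and -0.29 ± 0.08). PSENEN was higher after MMS at 24 h (0.28 ± 0.09, adjusted p = 0.0343).

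In the nucleus, MAML2, a Mastermind coactivator, was the lowest of its list at 8 h, at -2.06 ± 0.16 after MMS and -2.23 ± 0.17 in the combination against sorafenib. At 24 h MAML2 stood at -1.03 ± 0.16 and -0.93 ± 0.15, still lower. MAML3 and KAT2B were lower in all 4 comparisons with MMS as well, MAML3 at -1.05 ± 0.21 and -1.44 ± 0.21 after MMS at 8 h and 24 h, and at -0.67 ± 0.22 and -1.30 ± 0.21 in the combination against sorafenib. KAT2B stood at -0.76 ± 0.12 and -0.58 ± 0.12 after MMS, and at -0.58 ± 0.11 and -0.85 ± 0.11 in the combination. RBPJ, the DNA-binding partner of the receptor's intracellular part, was lower at 8 h (-0.43 ± 0.13, adjusted p = 0.024 after MMS, and -0.70 ± 0.13, adjusted p = 0.00161 in the combination). The list also holds corepressors, and TLE1, a corepressor that HES proteins recruit, was lower at 8 h (-0.95 ± 0.14 and -1.02 ± 0.14). The deacetylase HDAC1 was lower after MMS at 24 h (-0.68 ± 0.09). SNW1, a factor of the same complex, was higher at 24 h (0.37 ± 0.09 and 0.39 ± 0.09). Both activating and repressing parts therefore stood among the genes called.

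Of the other sugar-transfer enzymes, GXYLT2 and XXYLT1 were lower in all 4 comparisons with MMS. Both add xylose to the sugar chain that starts with O-linked glucose on the receptor's repeats. GXYLT2 stood at -1.10 ± 0.26 and -1.97 ± 0.26 after MMS at 8 h and 24 h, and at -1.14 ± 0.25 and -2.25 ± 0.25 in the combination against sorafenib. XXYLT1, listed under its older symbol in the files, stood between -0.64 and -0.50. The fucose transferase POFUT1, whose product the fringe enzymes extend, was not called in these comparisons. Among regulators of ligand and receptor turnover, NUMBL, a relative of the Notch inhibitor NUMB, was higher at 8 h (1.39 ± 0.14 and 1.28 ± 0.14), and the ubiquitin ligase NEURL1B was lower after MMS (-1.67 ± 0.52 at 8 h and -2.65 ± 0.54 at 24 h) and in the combination at 24 h (-3.30 ± 0.54).

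Of the 4 other ligands and receptors tested, DLL4, a Delta ligand known from endothelium, was higher in the combination against sorafenib at 8 h (1.26 ± 0.37, adjusted p = 0.0277). DNER, a Notch ligand of neural tissue, was lower at 24 h (-0.87 ± 0.18 after MMS and -0.93 ± 0.18 in the combination). Of 7 other targets of the pathway, HES4 was higher after MMS at 8 h (1.46 ± 0.40, adjusted p = 0.0177). HES7, a gene of the segmentation clock, was higher after MMS at 24 h (1.41 ± 0.44) and in the combination against sorafenib at 8 h and 24 h (2.05 ± 0.63 and 2.13 ± 0.48). The other targets tested were not called in these 4 comparisons. Counts of the pathway genes are not given here, so which of their calls rest on few counts cannot be read. This concerns most the genes with a large SE, such as HES7 and NEURL1B.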

How the data were processed

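The authors deposited raw counts of reads per gene, 1 file per library. The submitters' processing notes name CASAVA 1.8.2, TopHat2 2.0.8b, HTSeq and the build hg19. The HTSeq version, annotation and strand setting are not given in the sources used here. The 5 rows that name no gene held 37.6 to 39.9% of each file's total (reads with several alignments 29.5 to 31.5%) and stayed out of library sizes and tests. Levels (CPM) are counts scaled to the summed gene rows of each library.

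The tests used edgeR 4.0.16 under R 4.3.3 on the counts of all 16 libraries (TMM factors, filterByExpr, 1 mean per group, quasi-likelihood tests with 8 residual degrees of freedom, Benjamini-Hochberg adjustment over 13948 genes, threshold 0.05), and a check on simulated counts was run first. The series text calls the 2 libraries of a group independent experiments, and p-values measure the spread between them. The libraries of a group differed by more than sampling noise, so none was counted as a duplicate.

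Titles start with MDA231 or MDAMB231, once per group. Deviations from group means correlated at 0.489 to 0.707 between same-start libraries over 28 pairs of groups, all above 0.1, and the blocked fit is therefore given where it changes a call. The common biological variation was 0.0632 under the block, against 0.136 in the fit that had none. Alternatives were RLE factors, library totals, no filter, DESeq2 1.42.0, the block, the compared libraries alone and each library left out.

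The 10 genes and the pathway lists were chosen with earlier results of these data known. Named were the 10 genes, up to 4 genes per pathway list and comparison with the smallest adjusted p under 0.05, and the 5 genes most like LFNG and JAG1 (Pearson r of log2 group mean CPM + 1 over 8 groups, mean count of at least 50), as well as DUSP6 and ATF3. Not every gene under this rule is printed, and a few uncalled genes are named beside them. Exon lengths and overlaps come from GENCODE v29 (GRCh38), promoters from RefSeq (GRCh38.p14, 8 of 10 genes matched), and no coordinate was taken from the files' build.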

Additional observations from a re-analysis of the deposited data

How the results depend on the processing

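Where 1 library remained in a group, it was taken to vary as the other groups do. With the replicate block the calls among the 10 genes numbered 3 for sorafenib against DMSO at 8 h (0 without it) and 3 at 24 h (1), 5 in the combination against sorafenib at 8 h (2) and 7 at 24 h (3), 4 and 2 in the combination against MMS (0 and 0), and 4 for time in DMSO (0). DESeq2 called 1 gene for sorafenib at 8 h, beside 176 of all genes (58 in the main fit). With the compared libraries alone 0 were called for sorafenib at 24 h, beside 9 of all genes (111). They gave 1 in the combination against sorafenib at 8 h, beside 1994 of all genes (3411). Without 1 library the calls also shifted for sorafenib and MMS at 24 h and in the combination against sorafenib at 8 h. Calls over all genes were fewer in each of these fits. The cause of these shifts was not tested.

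Pathway calls numbered, without 1 library, 15 to 18 for MMS at 8 h (23 with all), 12 to 18 (19) and 13 to 20 (22) in the combination against sorafenib at 8 h and 24 h, 0 and 0 to 1 for sorafenib (1 and 1), and 0 to 8 in the combination against MMS at 8 h (1). With the block there were 5 and 8 for sorafenib, 10 and 2 in the combination against MMS, and 8 for time (all genes 4.98%, 7.1%, 9.46%, 2.01% and 13.6%). DESeq2 gave 2 for sorafenib at 24 h, beside 290 of all genes (111 in the main fit). It gave 2 in the combination against MMS at 8 h, beside 358 of all genes (89), where RLE factors gave 0, beside 86. The compared libraries alone gave 12 for MMS at 24 h (20), beside 2856 of all genes (4375). They gave 0 for sorafenib at 8 h and 24 h and for the combination against MMS at 8 h, beside 5, 9 and 38 of all genes.

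Of 48 gene results, the library totals and the fit without a filter turned the sign of JAG1 in the combination against sorafenib at 24 h (0.036 and 0.0019, against -0.01), as did leaving out 1 library (-0.16 to 0.17). Leaving out 1 library also turned JAG1 in that comparison at 8 h (-0.48 to 0.0050), HES1 after MMS at 24 h (-0.065 to 0.64) and in the combination against sorafenib at 8 h (-0.76 to 0.48), LFNG after sorafenib at 8 h (-0.67 to 0.13), and LFNG in the combination against MMS (-0.23 to 0.42 at 8 h, -0.45 to 0.43 at 24 h). None of these was called. In MMS against DMSO at 8 h, given without a test, it turned RFNG (-0.21 to 0.10), JAG2 (-0.52 to 1.24), NOTCH3 (-0.29 to 2.21) and HEY1 (-0.11 to 0.19). LFNG stayed lower under every alternative run in MMS against DMSO at 24 h and in the combination against sorafenib at both times. Over all genes, MMS against DMSO at 24 h gave 4375 calls, 6727 with the block and 2856 with the compared libraries alone. Few counts limit MFNG, NOTCH3 and HEY1.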

Other observations

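The 2 title starts differed in the level of several of these genes in a set direction. JAG2 was higher in the MDAMB231 library in 8 of 8 groups, at a median of 2.11 times the MDA231 library. HES1 (1.70 times), NOTCH1 (1.32 times) and JAG1 (1.21 times) were higher there in 8 of 8 groups too. LFNG was lower in the MDAMB231 library in 8 of 8 groups, at a median of 0.693 times, while NOTCH2 was higher in 3 of 8.

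SPRY1, another ERK output gene, had 2.8 and 2.7 CPM in MMS cells at 8 h, against 15.1 and 13.8 in DMSO cells (log2 change -2.36 ± 0.18, adjusted p = 2.52e-06 in edgeR). Sorafenib gave -0.41 ± 0.16 at 8 h (adjusted p = 0.543). DUSP6 was lower after both agents at 8 h, at -1.28 ± 0.09 after MMS and -1.25 ± 0.09 after sorafenib, which share their DMSO libraries. Of the 8 luminal epithelial markers, CDH1 had 4.27 to 9.34 CPM in sorafenib cells at 24 h, against 0.681 to 1.118 in DMSO cells, and was not tested. In the combination at 24 h CDH1 had 0.962 to 1.25, against 0.406 to 0.475 in MMS cells. The sum of the 8 markers overlapped between sorafenib and DMSO cells at 24 h (599 to 643 against 521 to 610).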
